A study of Homo sapiens with 8 samples.

Results

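Urea transporters and aquaporins were examined in the cell line CFPAC-1, which is established and comes from a human ductal adenocarcinoma of the pancreas. The 9 genes were SLC14A1 and SLC14A2, which encode urea transporters, and the aquaporin genes AQP1, AQP3, AQP5, AQP7, AQP8, AQP9 and AQP11, found by their symbols among 58870 genes. The set was chosen from a measured value, the higher SLC14A1 level in the transgene cells, so the differences between the groups are given for all 9 genes as a description without p-values. RNA was sequenced from 4 samples with an empty vector and 4 samples with an ADRA2A transgene. The transgene product is the alpha-2A adrenoceptor, which couples to Gi proteins and binds adrenaline and noradrenaline. Both groups were grown without drug for 72 hours in IMDM, a culture medium, with serum and antibiotics. The labels do not name the promoter of the transgene, how it was delivered, whether the line was 1 clone, or whether samples of a group came from separate cultures. The p-values given below for other genes therefore set the group difference against the spread between these samples, which may be technical.

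Urea transporters are channel-like membrane proteins that let urea cross the membrane down its gradient. SLC14A1 encodes UT-B, which carries the Kidd blood group antigens on red cells and is also made in vessels and several epithelia, and SLC14A2 encodes the UT-A proteins of the kidney collecting duct. Aquaporins are tetrameric channels. AQP1 and AQP5 pass mainly water, AQP3, AQP7 and AQP9 also pass glycerol and urea and are called aquaglyceroporins, AQP8 passes water and hydrogen peroxide, and AQP11 is found in membranes inside the cell. In the pancreas, ductal cells secrete a watery fluid and AQP1 and AQP5 are the water channels usually described there.

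Libraries held between 14427040 and 17528910 counts, and 14785 genes passed the filter on low counts and were tested. ADRA2A itself had 0 counts in all 4 empty-vector libraries and 112, 142, 154 and 172 counts in the transgene libraries. Of 8 ductal epithelium markers 7 were at 1 CPM or more, where CPM is counts per 1000000, scaled between libraries. The exception was CFTR. Summed, these 8 markers were at 11710 to 12260 CPM in the empty-vector and 11710 to 12780 CPM in the transgene libraries. In bulk RNA, fewer cells of a type and less RNA per cell cannot be told apart.

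Of the 9 genes, 6 were tested. In 5 of these 6 (SLC14A1, AQP3, AQP5, AQP7 and AQP11) every transgene library lay above every empty-vector library. Among all genes tested, 19.7% had transgene libraries that all lay above the empty-vector libraries. At an adjusted p-value of 0.05, the threshold used below, 21.6% of all genes tested passed as higher and 21.1% as lower. The median log2 fold change was 0.70 over the 6 genes and 0.00 over all genes tested. The set was picked from this comparison through SLC14A1, which is among the 6, so nothing is read from the count or the median. AQP1 was the gene whose groups overlapped, and SLC14A2, AQP8 and AQP9 were at or near 0 counts.

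**Figure D1:**
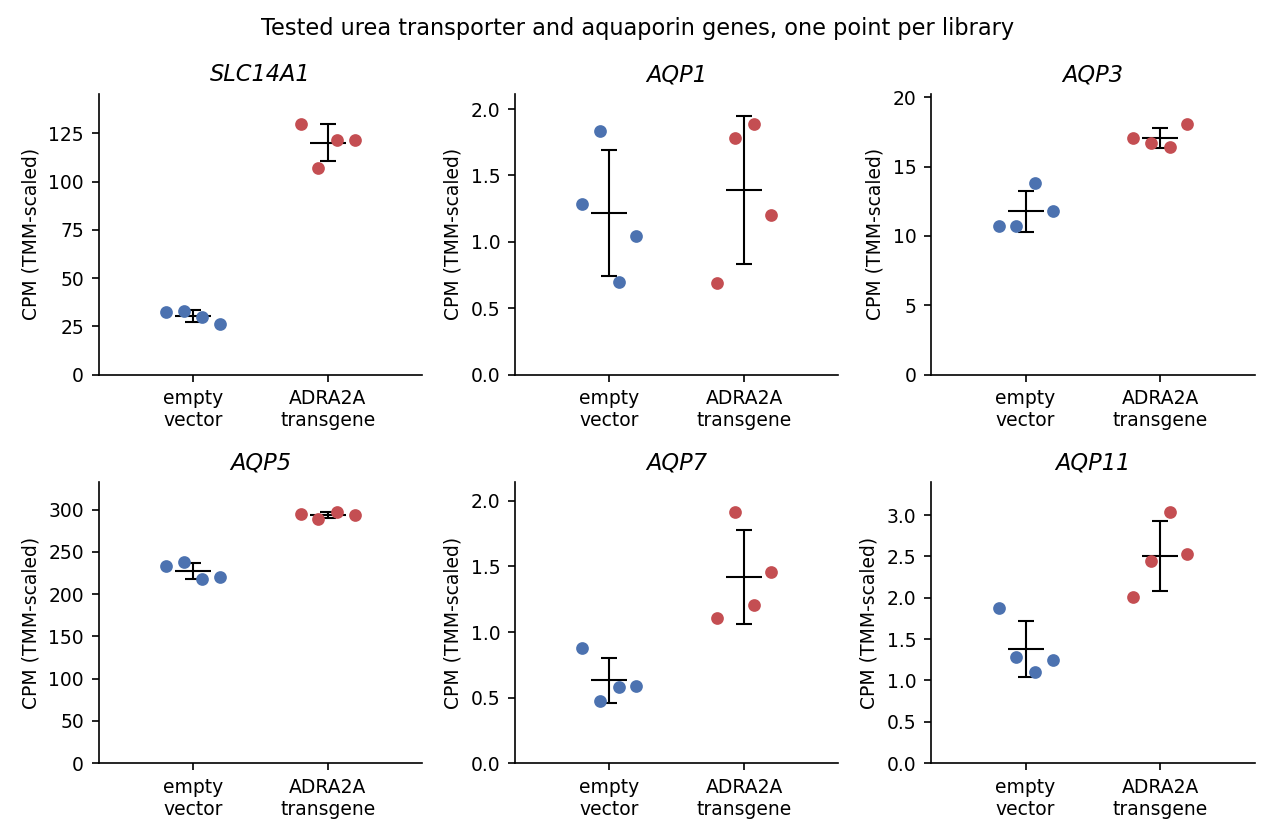
TMM-scaled CPM (y axis, from 0) of the 6 tested genes in the 4 empty-vector and 4 ADRA2A transgene libraries. Each point is a library, and the bar and whiskers are the mean and SD of a group. The transgene points lie above all empty-vector points for SLC14A1, AQP3, AQP5, AQP7 and AQP11, and the groups overlap for AQP1.

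SLC14A1 (ENSG00000141469.18; GRCh38 chromosome 18, 45687025 to 45752520, plus strand, 10 exons in the canonical transcript) was at 32.3, 33.0, 30.1 and 26.4 CPM in empty-vector libraries 1 to 4. The transgene libraries held 130.0, 107, 121.7 and 121.4 CPM. All transgene libraries were high and all empty-vector libraries low. The group means were 30.4 ± 2.97 and 120.05 ± 9.55 CPM (SD, n = 4 each), which is a log2 difference of 1.98 ± 0.07 (SE), or 3.94-fold. These values rest on 403 to 551 counts in the empty-vector libraries and 1622 to 2126 counts in the transgene libraries. Replicates varied by 9.75% and 7.96% (coefficient of variation), against 4.52% and 2.30% from counting alone.

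SLC14A2 (ENSG00000132874.14; chromosome 18, 45212995 to 45683688, plus strand) ends 3336 bases before the annotated start of SLC14A1. It had 1, 1, 0 and 0 counts in the empty-vector libraries and 1, 2, 1 and 0 counts in the transgene libraries, 6 counts in all. No difference in SLC14A2 was detectable at this depth. SLC14A2-AS1, an annotated antisense RNA of this locus, had 0 counts in every library, but others are annotated on the same strand. Of these, ENSG00000288545 overlaps both SLC14A2 and SLC14A1 and was not among the genes counted. Without knowledge of strand, its reads cannot be told apart from those of SLC14A1 where the genes overlap.

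Red cells and vessels are known sources of SLC14A1, so their markers are given beside it. Of 8 erythroid markers HBB, HBA1, HBA2, GYPB and ALAS2 had 0 counts in all 8 libraries. The erythroid sum was at most 0.2905 CPM in the empty-vector and 0.415 CPM in the transgene libraries. Among 7 endothelial markers TEK, CLDN5 and ERG had 0 counts everywhere and 1 marker, PECAM1, was at 1 CPM or more. The endothelial sum was 2.05 to 2.71 CPM in the empty-vector and 2.64 to 3.35 CPM in the transgene libraries.

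The sequence upstream of the 3 most abundant genes of the set shows how their starts differ in base composition and in a few known promoter motifs. RefSeq on GRCh38.p14 gave windows for 8 of the 9 genes. The 250 bases before the start are printed 5′ to 3′ for SLC14A1 (chr18:45723931-45724180, plus strand), AQP5 (chr12:49961622-49961871, plus strand) and AQP3 (chr9:33447594-33447843, minus strand), with every match to a searched motif in capitals.
SLC14A1: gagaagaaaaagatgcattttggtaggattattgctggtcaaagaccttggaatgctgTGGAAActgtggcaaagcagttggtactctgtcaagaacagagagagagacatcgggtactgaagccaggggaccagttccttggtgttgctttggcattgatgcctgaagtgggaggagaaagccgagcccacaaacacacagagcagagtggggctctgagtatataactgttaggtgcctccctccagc
AQP5: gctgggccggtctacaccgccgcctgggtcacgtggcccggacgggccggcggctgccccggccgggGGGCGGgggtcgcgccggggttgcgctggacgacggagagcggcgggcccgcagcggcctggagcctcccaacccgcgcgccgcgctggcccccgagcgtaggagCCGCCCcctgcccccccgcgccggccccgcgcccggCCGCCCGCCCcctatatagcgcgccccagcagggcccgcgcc
AQP3: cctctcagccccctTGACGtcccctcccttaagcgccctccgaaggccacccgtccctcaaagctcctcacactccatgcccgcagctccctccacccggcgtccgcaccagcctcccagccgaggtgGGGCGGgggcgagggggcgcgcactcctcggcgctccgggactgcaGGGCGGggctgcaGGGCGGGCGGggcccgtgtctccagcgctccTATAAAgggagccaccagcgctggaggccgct

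The SLC14A1 window was 49.6% G and C with 2 CpG dinucleotides. The AQP3 window was 73.6% G and C with 23 CpG, and the AQP5 window 84.4% with 41 CpG, where the median of 35116 windows of this length was 58.0%. The 6 motifs were searched on both strands. They were the cyclic AMP response element TGACGTCA with its shorter form TGACG (which lies within the full element), the AP-1 site TGANTCA, the NFAT core TGGAAA, the GC box GGGCGG and the TATA box TATAAA. In the SLC14A1 window only the NFAT core matched, once, starting 192 bases before the start, and 18.0% of all windows hold it. A second RefSeq start of SLC14A1, with its window at chr18:45726703-45726952, matched 0 of the 6. The AQP3 window held 1 match to TGACG, the shorter form of the cyclic AMP element, starting 236 bases before the start (21.2% of all windows hold it), 4 GC boxes, of which a pair overlaps (42.6%), and 1 TATA box that starts 32 bases before the start (10.7%). AQP5 had 4 GC boxes, also with an overlapping pair, and no other match. The full cyclic AMP element (1.65% of all windows) and the AP-1 site (6.57%) were in none of the 3 windows. The GENCODE gene model of SLC14A1 begins upstream of both RefSeq starts, and which start was used cannot be read from counts per gene.

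AQP5 (ENSG00000161798.7; chromosome 12, 49961872 to 49965682, plus strand, 4 exons) was by far the most abundant of the set. This water channel of secretory glands was at 232.7, 237.6, 217.3 and 220.6 CPM in empty-vector libraries 1 to 4 and at 294.3, 288.4, 297.0 and 293.6 CPM in transgene libraries 1 to 4. The groups did not overlap, and the transgene libraries lay within a narrow band. The means were 227.03 ± 9.69 and 293.3 ± 3.61 CPM (SD, n = 4 each), which is a log2 difference of 0.37 ± 0.04 (SE), or 1.29-fold. The replicate variation of 1.23% in the transgene group was no larger than the 1.47% expected from counting. A lncRNA gene on the opposite strand, AC025154.2 (AQP5-AS1 in GENCODE), overlaps AQP5, and the use of strand is not given in the sources used here. It was at 13.5 ± 0.715 and 12.4 ± 0.401 CPM (SD, n = 4 each; log2 fold change -0.13, adjusted p = 0.232).

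AQP3 (ENSG00000165272.16; chromosome 9, 33441156 to 33447596, minus strand, 6 exons), an aquaglyceroporin of epithelial basolateral membranes, was at 10.7, 10.7, 13.8 and 11.8 CPM in the empty-vector libraries. The transgene libraries were at 17.1, 16.7, 16.4 and 18.1 CPM, all above the empty-vector libraries, of which replicate 3 stood highest. Means were 11.8 ± 1.46 and 17.1 ± 0.744 CPM (SD, n = 4 each), with a log2 fold change of 0.53 ± 0.09 (SE), or 1.45-fold.

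AQP7 (ENSG00000165269.13; chromosome 9, 33383179 to 33402682, minus strand, 8 exons), known as the glycerol channel of fat cells, lies on the same strand as AQP3 with 38473 bases between them. Its levels were low, with 15, 7, 10 and 9 counts in the empty-vector and 16, 29, 21 and 23 counts in the transgene libraries. On the CPM scale every transgene library was above every empty-vector library, at 1.42 ± 0.361 against 0.631 ± 0.173 CPM (SD, n = 4 each), though transgene replicate 1 at 1.11 CPM and empty-vector replicate 1 at 0.878 CPM came close. The log2 fold change was 1.15 ± 0.32 (SE). Of the near-identical pseudogene copies of AQP7, AQP7P1, AQP7P2, AQP7P3, AQP7P4 and AQP7P5 were at 0 counts in all libraries. RSEM estimates how reads divide between such copies, although the AQP7 counts were whole in all libraries. AQP7B, another copy, was not found by its symbol among the genes counted, so the AQP7 value is uncertain.

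AQP11 (ENSG00000178301.3; chromosome 11, 77589391 to 77610356, plus strand, 3 exons), an aquaporin of the endoplasmic reticulum, had 32, 19, 19 and 19 counts in the empty-vector and 29, 37, 53 and 40 counts in the transgene libraries. In CPM the groups did not overlap, although empty-vector replicate 1 at 1.87 CPM and transgene replicate 1 at 2.01 CPM were close. The means were 1.38 ± 0.340 and 2.50 ± 0.422 CPM (SD, n = 4 each), which is a log2 difference of 0.86 ± 0.25 (SE). AQP11 lies inside CLNS1A, a far more abundant gene on the opposite strand with 1357 to 1777 counts per library. CLNS1A was at 99.3 ± 2.51 and 94.9 ± 6.64 CPM (SD, n = 4 each; log2 fold change -0.06, adjusted p = 0.301), and without knowledge of strand its reads cannot be told apart from those of AQP11 where the genes overlap.

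AQP1 (ENSG00000240583.12; chromosome 7, 30911853 to 30925517, plus strand, 4 exons), the water channel of red cells, vessels and small pancreatic ducts, had 22, 27, 12 and 16 counts in the empty-vector and 10, 27, 33 and 19 counts in the transgene libraries. The lowest CPM of all 8 libraries was in transgene replicate 1 and the highest in transgene replicate 3, so the groups overlapped. Means were 1.22 ± 0.477 and 1.39 ± 0.555 CPM (SD, n = 4 each), and the log2 fold change of 0.22 was smaller than its SE of 0.34. Replicates of AQP1 varied by 39.2% and 39.9%, against 22.8% and 21.2% from counting. At this depth a difference of the size seen in AQP5 was not detectable for AQP1.

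AQP9, an aquaglyceroporin best known from liver, had 0 counts among the 127337492 counts of all libraries, which allows a level of up to 0.0236 CPM. AQP8, described in pancreatic acinar cells and colon, had 1 count each in empty-vector replicates 3 and 4 and 0 in the other libraries. The acinar markers AMY2A and PNLIP were at 0 in every library, and the sum of 8 acinar markers was at most 0.271 CPM in the empty-vector and 0.443 CPM in the transgene libraries. These limits cover counting error only.

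Levels of different genes were compared per length, as counts per kb of the canonical transcript scaled to the same sum in each library (per 1000000). In the empty-vector cells AQP5 was at 358.8 ± 15.5, SLC14A1 at 17.8 ± 1.66, AQP3 at 14.8 ± 1.77, AQP11 at 1.72 ± 0.441, AQP1 at 1.01 ± 0.391 and AQP7 at 0.472 ± 0.134 per 1000000 (SD, n = 4 each). The library ranges of SLC14A1 (15.6 to 19.1) and AQP3 (13.3 to 17.2) overlapped, as did those of AQP11 and AQP1 and of AQP1 and AQP7, so the ranges of these neighbours in the order were not separate, although the order was the same within each of the 4 empty-vector libraries. The gap between SLC14A1 and AQP3 depended on the transcript length used. With the longest transcript of each gene, a choice made after seeing the data, SLC14A1 was at 22.5 ± 2.10 and AQP3 at 11.7 ± 1.40 (SD, n = 4 each), a gap larger than their spread. AQP5 stood clear of all others. In the transgene cells the levels per length were 465.8 ± 9.67 for AQP5, 70.6 ± 6.35 for SLC14A1, 21.5 ± 1.22 for AQP3, 3.14 ± 0.496 for AQP11, 1.16 ± 0.449 for AQP1 and 1.06 ± 0.263 for AQP7 (SD, n = 4 each). There SLC14A1 no longer overlapped AQP3 (62.1 to 77.4 against 20.4 to 23.1), while AQP1 and AQP7 exchanged places between libraries.

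**Figure D2:**
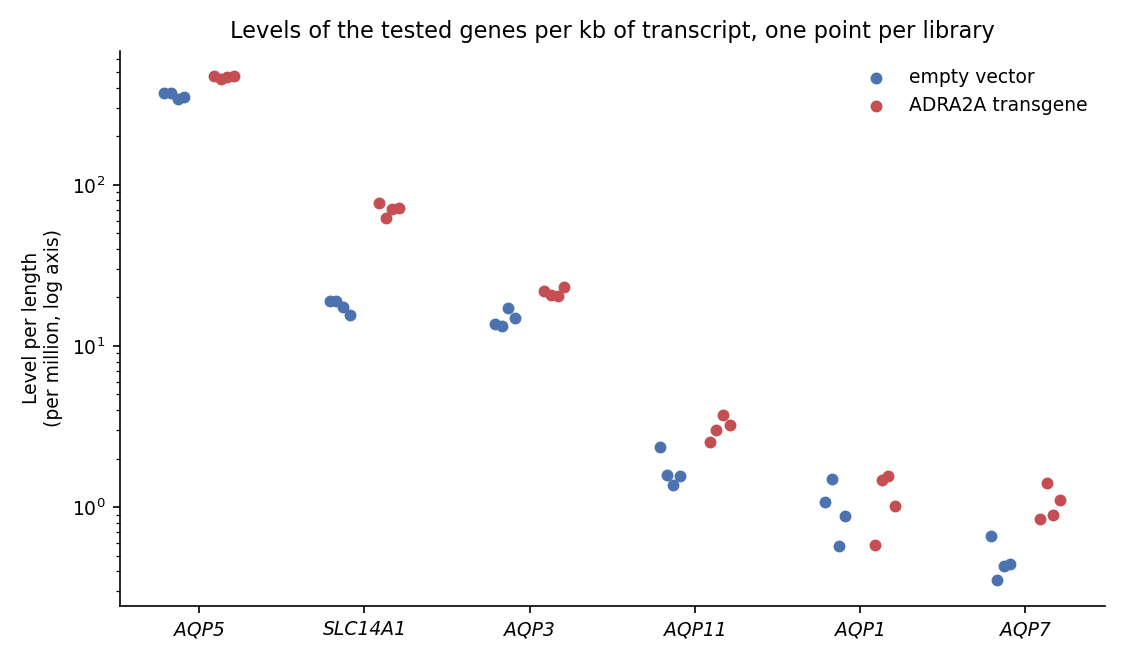
Level per length (counts per kb of canonical transcript, per 1000000 of the library's sum, log axis) of the 6 tested genes, ordered by their empty-vector mean. Each point is 1 of 4 libraries per group. AQP5 is at 340.0 or more in all libraries, and SLC14A1 overlaps AQP3 in the empty-vector libraries but not in the transgene libraries at this transcript length.

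As a ratio of levels per length within a library, AQP5 exceeded SLC14A1 by 20.3 ± 1.55 in the empty-vector and by 6.63 ± 0.483 in the transgene libraries (SD, n = 4 each). SLC14A1 over AQP3 was 1.22 ± 0.225 and 3.28 ± 0.266 in the same groups. Among the aquaporins alone the composition moved little. AQP5 made up 94.9% ± 0.468 of the summed level per length of 14 aquaporin genes in the empty-vector and 94.1% ± 0.158 in the transgene libraries, with no overlap between 94.25 to 95.26% and 93.91 to 94.24%. AQP3 made up 3.92% ± 0.624 and 4.35% ± 0.192 (SD, n = 4 each), with overlapping ranges.

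Of the 7 aquaporin genes outside the set, 2 were tested. AQP6, an aquaporin of intracellular vesicles in kidney, starts 1511 bases after the end of AQP5 on the same strand. It was at 1.05, 1.22, 0.581 and 1.11 CPM in the empty-vector and 3.11, 1.52, 1.60 and 1.96 CPM in the transgene libraries, with no overlap and with transgene replicate 1 the highest. AQP6 rose by 1.04 ± 0.31 on the log2 scale (SE given; edgeR adjusted p = 0.00994), and without transgene replicate 1 by 0.78, at an adjusted p of 0.0581. AQP4, the water channel of astrocytes, was at 0.963 ± 0.570 and 0.899 ± 0.274 CPM (SD, n = 4 each; edgeR adjusted p = 0.902). MIP, AQP2, AQP10, AQP12A and AQP12B had 0 counts in all libraries, among them AQP2, which lies 2993 bases before AQP5.

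Tested genes around SLC14A1 were lower or did not pass. Of the other genes that start within 1 Mb of it 7 were tested, 5 of them fell and 0 rose. Among all genes tested, 21.6% passed as higher and 21.1% as lower. The median log2 fold change of the 7 was -0.32, with a range from -1.59 to -0.08. RNF165 fell from 2.90 ± 0.673 to 0.963 ± 0.289 CPM (SD, n = 4 each; log2 fold change -1.59 ± 0.27, SE; edgeR adjusted p = 7.66e-05). PSTPIP2 fell from 2.54 ± 0.498 to 1.00 ± 0.324 CPM (SD, n = 4 each; log2 fold change -1.32 ± 0.27, SE; edgeR adjusted p = 0.000586). The other 3 that fell were ATP5F1A, HAUS1 and C18orf25, at log2 fold changes of -0.23, -0.49 and -0.19. EPG5, the nearest tested gene at higher coordinates, had -0.08 (edgeR adjusted p = 0.376), and SETBP1, the nearest before it and 1006852 bases away by their starts, had 0.20 (edgeR adjusted p = 0.255). The 5 genes that fell were chosen for naming after their values were seen.

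Around the other tested members most neighbours did not pass the threshold, where 21.6% of all genes tested passed as higher and 21.1% as lower. Within 1 Mb of AQP3 24 other genes were tested, of which 2 rose, 2 fell and 20 passed in neither direction (median log2 fold change -0.01). The 2 that rose include AQP7, a gene of the set, so its part in this count is not read. NOL6, 20197 bases from AQP3 by their starts, had a log2 fold change of -0.09 (edgeR adjusted p = 0.248), and NFX1, on the other side of AQP7, had 0.09 (edgeR adjusted p = 0.205). For AQP5 7 of 33 rose and 5 fell (median 0.03), and without transgene replicate 1 the 12 called became 7. AQP11 had 5 of 19 that rose and 3 that fell (median -0.02), with RSF1, its nearest tested gene at higher coordinates, at 0.00. For AQP1 1 of 11 rose and 3 fell (median -0.19), and the nearest tested genes on either side, MINDY4 (-0.24) and, 1573485 bases away by their starts, LSM5 (-0.06), passed in neither direction (edgeR adjusted p = 0.142 and 0.502).

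**Figure D3:**
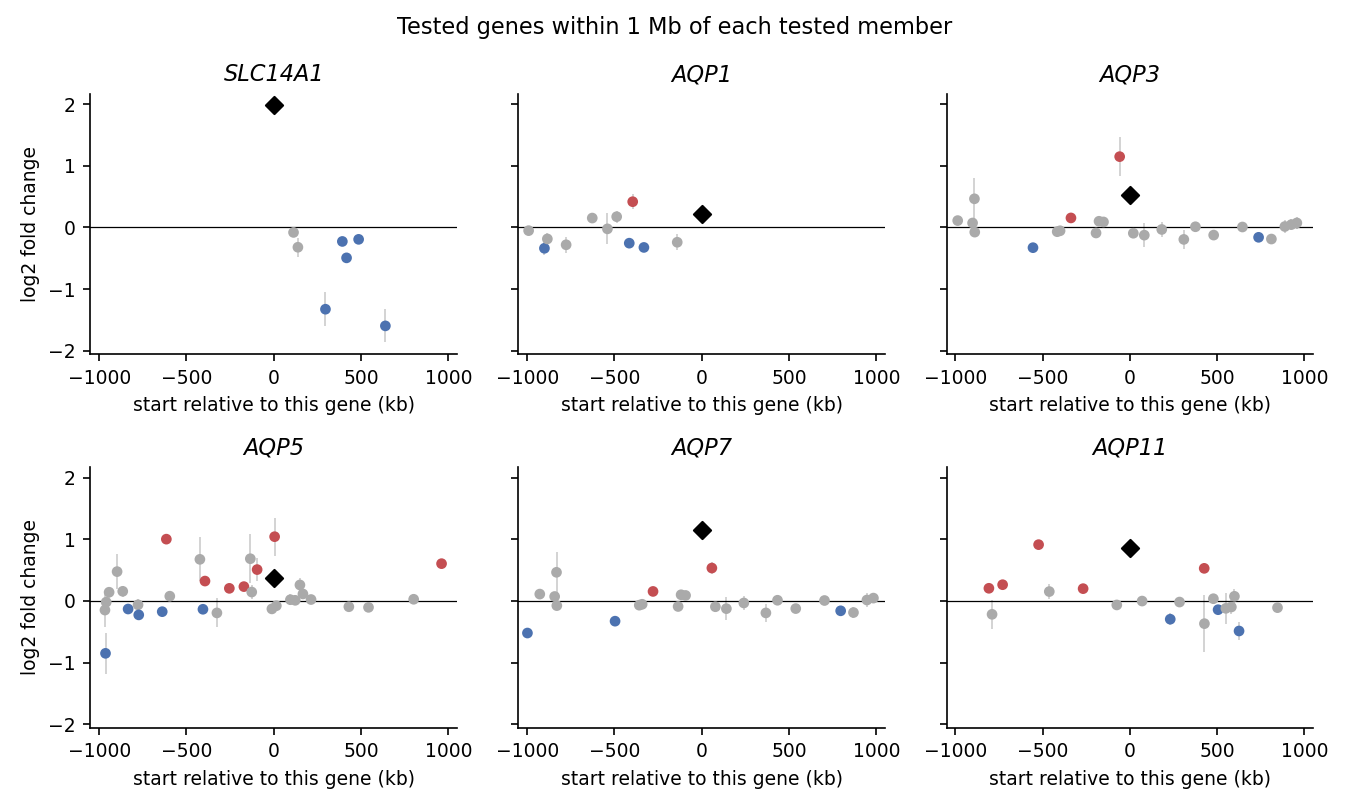
Log2 fold change ± SE (y axis, ADRA2A transgene minus empty vector) of tested genes whose start lies within 1 Mb of a tested member, by distance between starts (x axis, kb). The black diamond is the member, red and blue points passed an adjusted p of 0.05 as higher or lower, and grey points did not. AQP3 and AQP7 each appear as a coloured point in the panel of the other. Both are genes of the set, so that colour is not read. The 7 neighbours of SLC14A1 all lie below 0, while SLC14A1 is at 1.98.

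Genes that make, move or respond to what these channels carry were read from lists. For urea production, only the RNA of urea cycle genes and their carriers was read, and urea itself was not measured. Of 11 genes 7 were tested, of which 2 rose and 3 fell (median log2 fold change -0.16). Over all genes tested 21.6% rose and 21.1% fell, and no set test was run for any list. CPS1 was not tested at 2 to 13 counts per library. It was at 0.667 ± 0.0695 CPM in the empty-vector and 0.290 ± 0.147 CPM in the transgene libraries (SD, n = 4 each), with no overlap. ASS1, which makes argininosuccinate, increased from 14.7 ± 1.41 to 32.4 ± 1.96 CPM (SD, n = 4 each), which is 1.14 ± 0.08 on the log2 scale (SE given; edgeR adjusted p = 4.23e-10). Each transgene library (30.1 to 34.4 CPM) lay above each empty-vector library (12.7 to 15.8 CPM). ASL, which splits argininosuccinate, rose by 0.18 on the log2 scale (edgeR adjusted p = 0.00281). ARG2, the mitochondrial arginase that releases urea, fell from 7.37 ± 0.531 to 5.24 ± 0.362 CPM (SD, n = 4 each; log2 fold change -0.49, edgeR adjusted p = 0.00292), and the liver arginase ARG1 and OTC had 0 counts. The mitochondrial carriers SLC25A13 (log2 fold change -0.16, edgeR adjusted p = 0.0183) and SLC25A15 (-0.26, edgeR adjusted p = 0.0409) fell with overlapping groups. Without transgene replicate 4 the called genes were 3 rather than 5, since both carriers lost the call (adjusted p = 0.0687 and 0.125). SLC25A13 also lost it without empty-vector replicate 4 (0.0584). SLC25A15 lost it as well without transgene replicate 1 (0.137) and empty-vector replicates 2 (0.0538), 3 (0.135) and 4 (0.0922).

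The tonicity response list holds NFAT5, the transcription factor that responds to hypertonic stress, and other genes linked to tonicity. Several are carriers of organic osmolytes, and not all are known targets of NFAT5. Of 10 genes 9 were tested, 1 rose and 3 fell (median log2 fold change -0.10). Over all genes tested 21.6% rose and 21.1% fell. NFAT5 was at 108.5 ± 5.83 and 112.4 ± 12.9 CPM (SD, n = 4 each; edgeR adjusted p = 0.541), and the osmolyte carriers SLC5A3 and SLC6A6 passed in neither direction (edgeR adjusted p = 0.447 and 0.134). AKR1B1, the aldose reductase that makes sorbitol, fell from 35.7 ± 3.64 to 27.6 ± 1.51 CPM (SD, n = 4 each; log2 fold change -0.37, edgeR adjusted p = 0.000311). HSPA4L and SLC38A2 fell by 0.32 and 0.22 on the log2 scale (edgeR adjusted p = 0.00306 and 7.12e-06). SGK1, a kinase that raises ion transport, rose by 0.38 ± 0.09 on the log2 scale (SE given; edgeR adjusted p = 0.00166).

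All 14 genes of the cell volume list were tested, of which 3 rose and 5 fell (median log2 fold change -0.01). Over all genes tested 21.6% rose and 21.1% fell. The volume-regulated anion channel is built from LRRC8 subunits. Its obligatory subunit LRRC8A fell from 188.6 ± 3.83 to 158.0 ± 3.22 CPM (SD, n = 4 each; log2 fold change -0.26, edgeR adjusted p = 6.99e-06), and LRRC8C fell by 0.51 on the log2 scale (edgeR adjusted p = 0.00265). LRRC8B, LRRC8D and LRRC8E had 0.13, 0.11 and -0.03 and did not pass. SLC12A2, the sodium-potassium-chloride cotransporter that loads chloride in secretory cells, increased from 315.7 ± 18.1 to 371.3 ± 31.4 CPM (SD, n = 4 each; log2 fold change 0.23, edgeR adjusted p = 0.000966), with overlapping groups. The potassium-chloride cotransporter gene SLC12A7 rose by 0.23 (edgeR adjusted p = 0.000796). SLC12A4, of the same family, fell by 0.19 (edgeR adjusted p = 0.0335). The call of SLC12A4 was lost when transgene replicate 1, 2 or 4 or empty-vector replicate 1 or 2 was left out (adjusted p = 0.0536 to 0.139) and with DESeq2 (0.0599).

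Glycerol, which AQP3 and AQP7 pass, is released from stored fat and phosphorylated by glycerol kinase. Of 19 genes on the glycerol list 16 were tested, 6 rose and 7 fell (median log2 fold change 0.08). Over all genes tested 21.6% rose and 21.1% fell. GK, the glycerol kinase gene, increased from 12.0 ± 0.484 to 17.3 ± 1.07 CPM (SD, n = 4 each; log2 fold change 0.53, edgeR adjusted p = 2.82e-05). DGAT2, which makes triglyceride, increased from 11.2 ± 0.602 to 18.3 ± 0.773 CPM (SD, n = 4 each; log2 fold change 0.71, edgeR adjusted p = 7.26e-07). G0S2, an inhibitor of the fat lipase PNPLA2, fell from 17.3 ± 1.08 to 9.33 ± 1.03 CPM (SD, n = 4 each; log2 fold change -0.89, edgeR adjusted p = 2.53e-07). PNPLA2 itself rose by 0.25 on the log2 scale (edgeR adjusted p = 0.000532). ABHD5 and MGLL, also on this list, fell by 0.23 and 0.11 (edgeR adjusted p = 0.00827 and 0.0183), and LIPE passed in neither direction (0.231). PNPLA3 fell by 0.45 and PLIN2, a lipid droplet coat gene, by 0.37 on the log2 scale (edgeR adjusted p = 0.00073 and 0.000634). PLIN4, another coat gene, rose by 1.64 ± 0.40 (SE; edgeR adjusted p = 0.00262) at a low level of 1 to 8 counts in the empty-vector and 13 to 22 counts in the transgene libraries.

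Hydrogen peroxide crosses AQP3, AQP8 and some other aquaporins. Its list had 19 genes, 15 tested, with 4 that rose and 4 that fell (median log2 fold change -0.06). Over all genes tested 21.6% rose and 21.1% fell. DUOX2, a peroxide-producing oxidase of mucosal surfaces, increased from 1.03 ± 0.375 to 3.01 ± 0.440 CPM (SD, n = 4 each; log2 fold change 1.54 ± 0.27, SE; edgeR adjusted p = 9.88e-05). SOD2, which turns superoxide into peroxide in mitochondria, increased from 43.2 ± 3.62 to 67.0 ± 3.88 CPM (SD, n = 4 each; log2 fold change 0.64, edgeR adjusted p = 4.42e-08). GPX2, an epithelial glutathione peroxidase, rose by 0.38 (edgeR adjusted p = 0.000289). DUOX2 was low, at 11 to 51 counts per library. The peroxide-removing genes PRDX2 and GPX4 fell by 0.28 and 0.25 on the log2 scale (edgeR adjusted p = 0.000264 and 0.000145). Others of these families differed: PRDX1, PRDX3, PRDX4 and PRDX5 passed in neither direction. PRDX6 fell by 0.145 and GPX1 rose by 0.128 (edgeR adjusted p = 0.0082 and 0.0244), both with overlapping groups. CAT, the catalase gene, fell by 0.21 (edgeR adjusted p = 0.0311) with overlapping groups, and lost the call without transgene replicate 1 or 2 or empty-vector replicate 2, 3 or 4 (adjusted p = 0.0624 to 0.121).

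**Figure D4:**
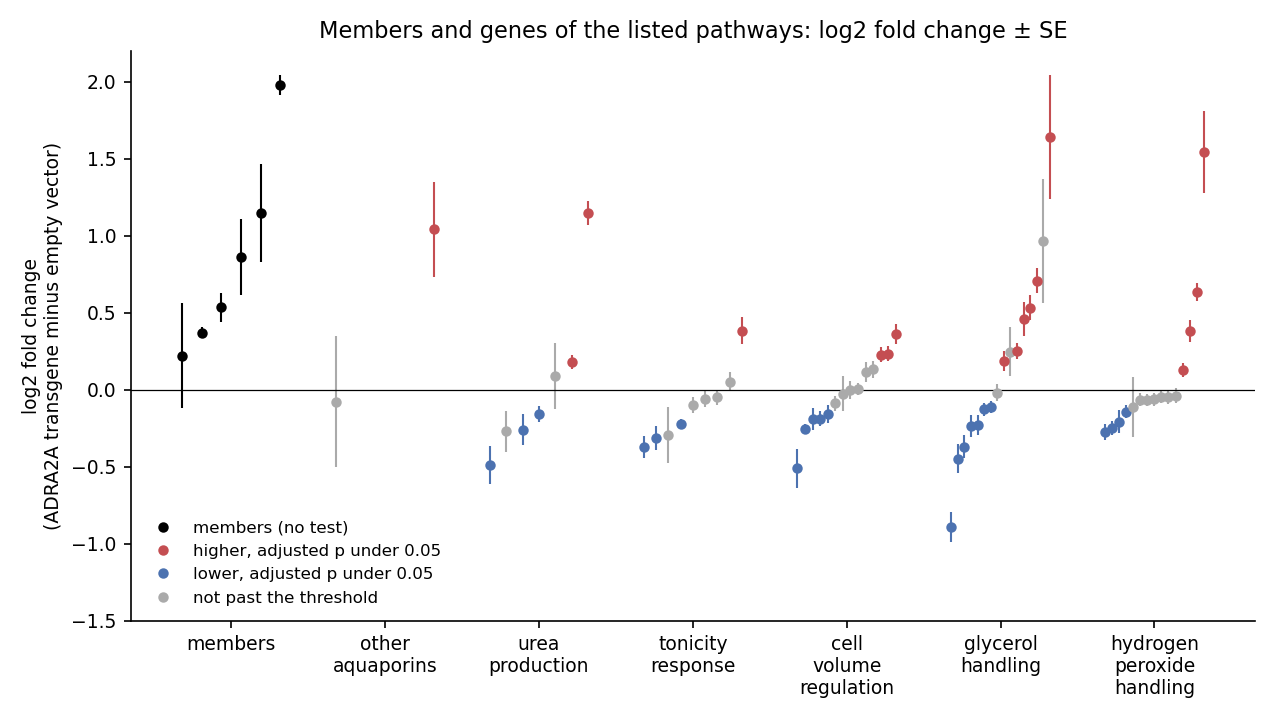
Log2 fold change ± SE (y axis, ADRA2A transgene minus empty vector) of the 6 tested members and of the tested genes of 6 lists, each ordered by value. Black points are members, for which no test result is given. Red and blue points passed an adjusted p of 0.05 as higher or lower, and grey points did not. The members run from 0.22 to 1.98, and every list with more than 2 tested genes has called points on both sides of 0.

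The genes whose levels followed SLC14A1 most closely were found by Pearson's r of log2 CPM over the 8 libraries, among 11571 genes at a mean of 5 CPM or more. They were SELPLG (r = 0.999), BAMBI (0.999), RNF128 (0.998), HLX (0.998) and TMEM37 (0.998). All 5 were higher in the transgene libraries, with log2 fold changes from 0.75 to 1.54, and r over libraries of 2 groups mostly reflects the difference between the groups. Within the set, r with SLC14A1 was 0.989 for AQP5, 0.907 for AQP3, 0.871 for AQP11, 0.856 for AQP7 and 0.153 for AQP1. These values are descriptive.

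Markers of further cell types were read in the same libraries. The sum of 6 fibroblast markers was 2.04 to 2.55 CPM in the empty-vector and 1.18 to 1.66 CPM in the transgene libraries. Of 6 immune markers CD3E and NKG7 had 0 counts in all libraries, and the sum was 89.9 to 96.2 CPM in the empty-vector and 109.9 to 120.9 CPM in the transgene libraries, nearly all of it from CD68, a lysosomal gene that epithelial cells express too. Both sums moved with the groups, and their part in the values of the urea transporter and aquaporin genes was not tested.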

How the data were processed

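Bulk RNA sequencing of 8 samples was analysed, 4 per group, as labelled. The authors deposited RSEM estimated counts per gene, not scaled between samples, and 4.61% to 4.90% of the values in a library were not whole. All columns were assigned by the name in brackets in the sample titles (0 left over). Per the submitters' processing notes, cutadapt, STAR, RSEM and DESeq2 were used with hg38. Versions, annotation and use of strand are not given in the sources used here. Positions and transcript lengths are from GENCODE release 44 (GRCh38), which gave a length for 58517 genes (99.4%).

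Counts were rounded and tested across all genes with edgeR 4.0.16 (R 4.3.3) by glmQLFit and glmQLFTest after filterByExpr, with TMM scaling and Benjamini-Hochberg adjustment over 14785 genes. CPM uses the same scaling. SE is the absolute log2 fold change divided by the square root of F. The fit was tested on simulated data in which the spread beyond counting was the same small value for all genes. The outcome therefore does not cover genes with a wider spread, such as AQP1. No pair of libraries was within sampling noise (chi-square per degree of freedom 2.15 to 5.04).

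The genes of the set and the lists were chosen with earlier results of these data known. Named were all 9 genes, ADRA2A, up to 3 called genes per direction and list by fold, the nearest tested gene on each side of a tested member, and the 5 genes most correlated with SLC14A1. Names outside this rule were picked with their values in view. Not every gene that the rule names is reported here. A symbol on several rows was read from the row with most counts. Alternatives were DESeq2 1.42.0, limma 3.58.1 voom, RLE and upper quartile factors, no filter, a mean of at least 50 counts, a replicate block and each library left out. Transcript length was varied after seeing the data.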

Additional observations from a re-analysis of the deposited data

Results flagged for a closer look

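In 68 sets of 4 libraries (each tested member and named list gene in each group), 2 held a library far from the other 3 by Dixon's test at 95%, where chance alone gives about 1 in 20. PLIN4 was at 0.0655 CPM in empty-vector replicate 4, against 0.407 to 0.475 CPM in the other 3. GPX2 was at 36.4 CPM in transgene replicate 1, against 45.6 to 47.4 CPM in the other 3. None of the 6 tested members had such a library.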

How the results depend on the processing

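The log2 fold changes of the 6 tested members are a description, since the set was chosen from this comparison, and their range is given with no reading of stability. Leaving out each library in turn gave 1.92 to 2.03 for SLC14A1, 0.35 to 0.39 for AQP5, 0.49 to 0.62 for AQP3, 0.98 to 1.35 for AQP7, 0.75 to 1.05 for AQP11 and 0.02 to 0.47 for AQP1. With a mean of at least 50 counts, 3 members were tested, 5 neighbours of SLC14A1 were tested and 3 of them called, and 0 other aquaporins were tested or called. AQP7, AQP11, AQP1, AQP6 and AQP4 did not reach that mean, nor did the SLC14A1 neighbours RNF165 and PSTPIP2. Over the fits without 1 library, calls ranged from 0 to 1 for the other aquaporins, from 3 to 5 for urea production and from 7 to 12 for the neighbours of AQP5. For the remaining lists they ranged from 4 to 5 (tonicity), 6 to 8 (cell volume), 10 to 13 (glycerol) and 6 to 8 (hydrogen peroxide). The call of SLC25A15 was lost with DESeq2 (adjusted p = 0.0504). With the longest transcript as length, levels per length in the empty-vector cells were 453.4 for AQP5, 22.5 for SLC14A1 and 11.7 for AQP3, so that SLC14A1 and AQP3, which overlap with the canonical length, stood apart. Over all genes tested, the deviations of same-numbered libraries from their group means had correlations of -0.021, -0.042, 0.070 and -0.024. Low-count genes weigh as much as others in these values, so they do not decide whether same-numbered libraries were handled together. With the replicate number as a block the count of called genes went from 6314 to 6400, and SLC14A1 had a log2 fold change of 1.98. Low counts limit AQP1, AQP7 and AQP11 most.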
